A study of Mus musculus with 4 samples.

Results

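The miRNAs described here are the mouse entries numbered miR-690 to miR-721, a run of consecutive numbers in the miRNA registry. A number records the order in which entries were submitted, so it groups miRNAs by when they were reported and not by gene family, genomic cluster or target. Members were taken by name alone, whatever their letter or arm. Of the 389 mature miRNAs in the table, 10 met this rule, and they came from 8 hairpins. They were mmu-miR-690, mmu-miR-696, mmu-miR-697, mmu-miR-702-5p, mmu-miR-706, mmu-miR-708-3p, mmu-miR-708-5p, mmu-miR-709, mmu-miR-712-3p and mmu-miR-712-5p. The suffix gives the arm of the hairpin from which the mature strand is cut.

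A miRNA is a short RNA that guides Argonaute proteins to messenger RNAs, mainly through its seed, bases 2 to 8 from the 5′ end. The canonical precursor is a hairpin cut first by Drosha and then by Dicer, but several entries of this block are known for other origins. MiR-712 lies in the precursor of ribosomal RNA and is known as a flow-sensitive miRNA of mouse endothelium. MiR-702 is a mirtron, a hairpin released by splicing of a short intron. MiR-708 is conserved among mammals and is induced during endoplasmic reticulum stress.

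Small RNA was sequenced from exosome-enriched preparations of the culture supernatant of C8-D1A, an established wild-type mouse astrocyte line, so all 4 libraries come from a single line. The control group (2 libraries) was kept at 37 °C, for 8 h by the sample labels, whereas the authors' methods give a shorter time. The heat stress group (2 libraries) was held at 42 °C for 2 h and rewarmed at 37 °C for 6 h. Cells of both groups were grown with fetal bovine serum, and vesicles were pelleted by ultracentrifugation. The comparison asks which miRNAs of these preparations differ after heat stress.

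Of 12 miRNAs taken as markers of cell types, 10 were listed and 5 were above 0 in all 4 libraries. The most abundant was miR-125b-5p, which is common in astrocytes, with values of 2134 and 1612 under control conditions and 2402 and 3254 after heat stress, each pair given in the order of library 1 and library 2. Summed over the 10 markers, the value was 2464 and 1719 in the control libraries and 2626 and 3469 in the heat stress libraries. In each library most of this sum was miR-125b-5p, so it does not describe the other markers. The neural miR-9-5p was at 122 in control library 1, 0 in control library 2, 138 in heat stress library 1 and 48.0 in heat stress library 2, and its other arm, miR-9-3p, was at 56.9, 0, 4.74 and 0 in the same order. Control library 2 thus listed neither arm of this marker. The neuronal miR-124-3p did not exceed 4.06 in any library, and of the blood-cell markers miR-223-3p and miR-144-3p did not exceed 0.790. The other blood-cell markers listed were present throughout, miR-451a at 17.6, 23.5, 15.0 and 37.0 and miR-142a-5p at 24.4, 14.9, 26.1 and 24.0 (control libraries 1 and 2, then heat stress libraries 1 and 2). So were the liver marker miR-122-5p (90.8, 33.6, 20.5 and 76.1) and the muscle marker miR-206-3p (14.9, 34.4, 19.0 and 27.0), and for each of these 4 the groups overlapped. The muscle miRNA miR-1a-3p was not among the 12 markers. It was at 24.4, 73.5, 3.16 and 0 in the same order, lower in both heat stress libraries than in both control libraries. In the limma test described below, its log2 change of -4.41 was the lowest of all 313 miRNAs tested (adjusted p = 0.513 by limma). It thus stands at the extreme of these same data and is no separate marker result. What serum contributed to the preparations was not tested.

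Each library has 1 normalized value per miRNA, and every value was a whole multiple of a fixed step, to within 0.0001 of a step. This step measured 1.35 (control library 1), 0.782 (control library 2), 0.790 (heat stress library 1) and 1.00 (heat stress library 2). In reads, if a step is worth 1 read, totals were 43675, 95020, 100933 and 63338 in that order, and the 10 entries took 132, 331, 213 and 235 of them. The criterion used for recovered reads, at least 100 values of 1 to 20 steps and a step that is not within 0.005 of a power of 10 on the log10 scale, was not met in control library 2 (96 such values) or heat stress library 2 (step 1.00), so reads given below for these libraries rest on that reading of the step. They made up 0.302% and 0.348% of the summed values of the control libraries and 0.211% and 0.371% of those of the heat stress libraries. By mean value over the 4 libraries, they ranked between 64 (miR-708-3p) and 348 (miR-697) of the 389 miRNAs.

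Ordered by that mean, the entries ran from miR-708-3p (94.8) through miR-709 (40.7), miR-690 (24.5), miR-706 (14.6), miR-712-3p (11.7), miR-712-5p (9.26), miR-708-5p (6.17), miR-696 (5.79) and miR-702-5p (2.57) to miR-697 (0.250). Neighbours in this order were not separated, since in each neighbouring pair the 4-library ranges overlapped. MiR-708-3p, miR-709, miR-690 and miR-706 were above 0 in all 4 libraries. MiR-708-5p was above 0 in 3, miR-696 and miR-712-3p in 2, and miR-697, miR-702-5p and miR-712-5p in 1. The number of entries above 0 was 5 in each control library and 8 in each heat stress library. For all 389 miRNAs it was 223 in each control library and 250 and 270 in the heat stress libraries.

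**Figure D1:**
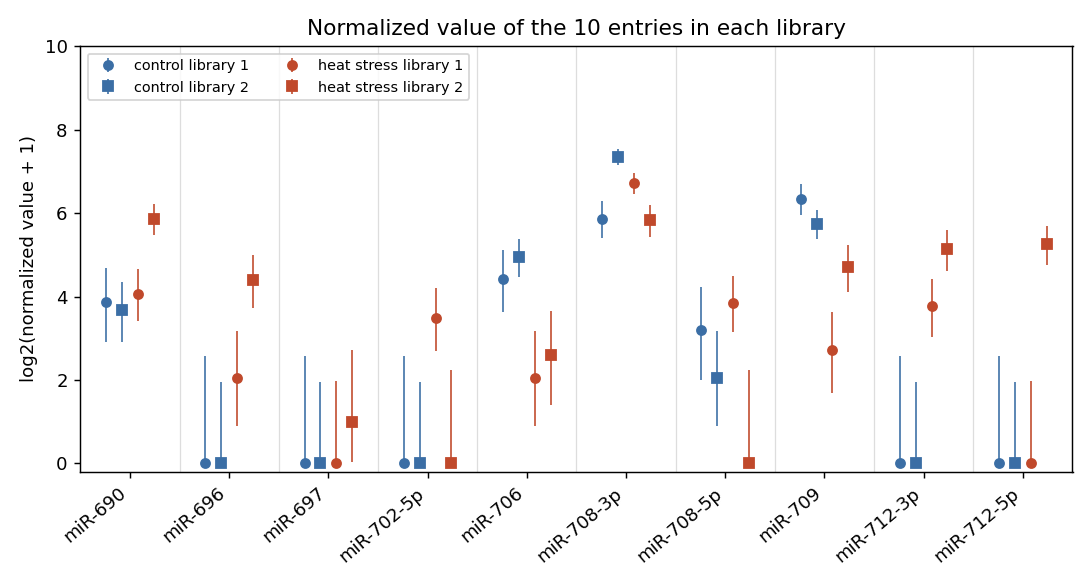
Normalized value of each of the 10 entries in each library, on the log2(value + 1) scale. Points are libraries (blue control, red heat stress, circles library 1, squares library 2), and bars are exact 95% Poisson intervals that cover counting error only, taking a step as 1 read. MiR-706 and miR-709 had their 2 lowest values after heat stress, and miR-696 and miR-712-3p were above 0 in the heat stress libraries only.

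A mean value of at least 1 was needed for the test, and 9 of the 10 entries passed this filter (313 of 389 overall). Heat stress was compared with control by limma on log2(value + 1), and the threshold asked for a change above 2-fold at an unadjusted p below 0.05. MiR-712-3p and miR-696 were past this threshold as higher and miR-706 as lower, and the other 6 were not. That is 2 of 9 higher and 1 of 9 lower, where the shares over all 313 miRNAs tested were 4.47% and 2.88%. With counts this small, and with entries at 0 in both control libraries entering the test only through their heat stress values, the shares are descriptions. None of the 313 limma p-values stayed below 0.05 once adjusted by Benjamini-Hochberg (0 of 313), while 23 of them were below 0.05 at an unadjusted p. The median log2 change was 1.20 over the 9 entries and 0.12 over all 313. That of the entries fell to 0 without heat stress library 1 and to 0.30 without heat stress library 2, and it was -0.33 over the 5 entries with a mean value of 10 or more. Both heat stress libraries lay above both control libraries for 3 of the 9 (miR-690, miR-696 and miR-712-3p) and below them for 2 (miR-706 and miR-709), and such separation was seen in 16.0% and 11.5% of the 313. With 2 libraries against 2, the smallest two-sided p that exact permutation allows for a miRNA is 0.333, and smaller values rest on limma's model.

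**Figure D2:**
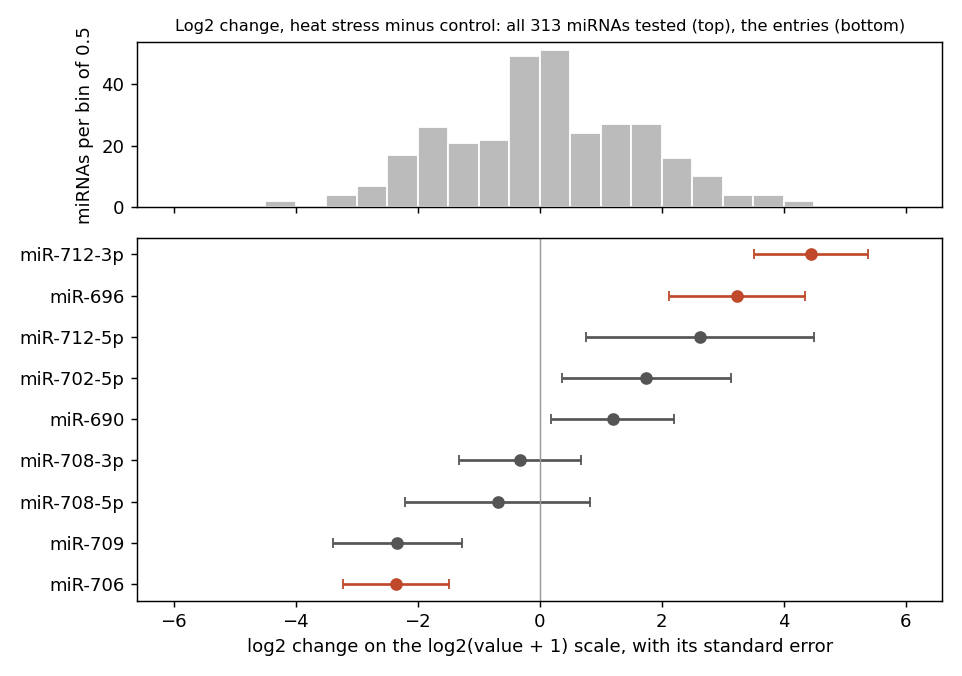
Log2 change (heat stress minus control) on the log2(value + 1) scale. The top panel is a histogram of all 313 miRNAs tested, and the bottom panel gives the 9 entries tested with their standard errors, in red where past the threshold. The entries span from -2.36 (miR-706) to 4.45 (miR-712-3p).

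Both arms of the ribosomal hairpin were seen only after heat stress, but the heat stress libraries differed in whether the 5p arm was there. The value of miR-712-3p was 0 and 0 in the control libraries, 12.6 in heat stress library 1 and 34.0 in heat stress library 2. The value of miR-712-5p was 0, 0 and 0 in the first 3 of these libraries and 37.0 in heat stress library 2. Thus the 3p arm was present in both heat stress libraries and the 5p arm in a single one. Expressed as reads, the 3p arm made up 16 of 16 reads of the hairpin in heat stress library 1 (exact Clopper-Pearson 95% interval 79.4% to 100%). In heat stress library 2 it made up 34 of 71, or 47.9% (35.9% to 60.1%). These intervals do not overlap, but they cover counting error only, and how far the arm balance varies between preparations was not tested. Reads of these arms cannot be told apart here from fragments of the ribosomal RNA precursor. No precursor transcript was in the annotation used, so this was not tested. The log2 change of miR-712-3p was 4.45 (standard error 0.94, adjusted p = 0.513 by limma). Set against 3 reads in each control library, the one-sided 95% limit of a 0, its heat stress mean was 7.28-fold higher. The same ratio was 10.6-fold with heat stress library 2 alone and 3.94-fold with heat stress library 1 alone. The threshold was missed, at the same log2 change, when either control library (value 0) was left out. It was passed without heat stress library 1 (log2 change 5.13) or without heat stress library 2 (3.77). In those fits the control values have no spread, so passing says little about replication. The size of the log2 change depends on the amount added to the values, and it was 7.70 when 0.1 was added instead of 1. For miR-712-5p the log2 change was 2.62 (standard error 1.86, adjusted p = 0.686 by limma), not past the threshold. It was 0 without heat stress library 2 and 5.25, past the threshold, without heat stress library 1.

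MiR-696, which is known for targeting the coactivator PGC-1α in skeletal muscle, followed a similar course. It was at 0 and 0 in the control libraries, 3.16 in heat stress library 1 and 20.0 in heat stress library 2, that is 4 and 20 reads. The heat stress libraries differed from each other by 6.33-fold. Its log2 change was 3.23 (standard error 1.11, adjusted p = 0.612 by limma), and its heat stress mean was 3.62 times a level of 3 reads in each control library. Without heat stress library 1 this ratio was 6.25. Without heat stress library 2 it was 0.986, so 3 reads in each control library would match the value of heat stress library 1. At the same log2 change of 3.23, miR-696 missed the threshold when either control library was left out, with a replicate block and with a mean-trended variance prior. It stayed past the threshold without heat stress library 1 (log2 change 4.39) or without heat stress library 2 (2.06), in fits where the spread of the 2 control values is 0.

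The closest course to that of both miR-712-3p and miR-696 was seen in miR-3095-3p, at Euclidean distances of 0.96 and 0.97 on the log2(value + 1) scale over the 4 libraries. Its values were 0, 0, 7.11 and 22.0 in the same order of libraries. MiR-696 itself was the third nearest of the 388 other miRNAs to miR-712-3p (1.87), after miR-181b-5p (1.75). MiR-712-5p was nearest to miR-466m-5p and miR-669m-5p (both 0.86), each with 20.0 in heat stress library 2 and 0 elsewhere, followed by miR-148a-5p (1.55). After miR-3095-3p, miR-696 was nearest to miR-322-3p (1.31) and miR-532-3p (1.85). These distances were computed over the libraries in which the differences had been seen and serve only to describe them.

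Of the 4 entries with a log2 change below 0, miR-706 and miR-709 were those whose groups did not overlap. The value of miR-706 was 20.3 in control library 1, 29.7 in control library 2, 3.16 in heat stress library 1 and 5.0 in heat stress library 2. The mean fell from 25.0 ± 6.65 (SD, n = 2) to 4.08 ± 1.30 (SD, n = 2), a 6.13-fold difference that exceeded the spread within either group. Its log2 change was -2.36 (standard error 0.86, adjusted p = 0.612 by limma). As reads these were 15, 38, 4 and 5, and the exact 95% Poisson intervals of the heat stress values (0.861 to 8.09 and 1.63 to 11.7) reached no higher than 11.7. The lowest control bound was 11.4, so counting error alone left a slight overlap between control library 1 and heat stress library 2. The threshold was missed without control library 2 or without heat stress library 1 (log2 change -2.09 each), with a replicate block and with a mean-trended variance prior, and was passed without control library 1 or without heat stress library 2 (-2.62 each).

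MiR-709, known to act in the nucleus on the processing of another miRNA precursor, had values of 79.9 (control library 1), 52.4 (control library 2), 5.53 (heat stress library 1) and 25.0 (heat stress library 2). All 4 libraries were thus separated by group, with heat stress library 1 far below the rest. The group means were 66.2 ± 19.5 and 15.3 ± 13.8 (SD, n = 2 each), 4.33-fold apart. The log2 change of -2.33 (standard error 1.06, adjusted p = 0.686 by limma) was close to that of miR-706 but did not pass the threshold. It passed without heat stress library 2 (log2 change -3.33) and with a mean-trended variance prior, and the change was -1.34 without heat stress library 1. The 3 miRNAs nearest to it were miR-193a-5p (84.0, 68.8, 13.4 and 56.1, distance 1.66), miR-6240 (63.7, 27.4, 3.95 and 81.1, distance 1.96) and miR-3470b (33.9, 27.4, 17.4 and 26.0, distance 2.13). Each of the 3 was lowest in heat stress library 1, as miR-709 was.

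MiR-690, a miRNA known from exosomes of macrophages, was detected throughout. Its value was 13.5 and 11.7 in the control libraries, 15.8 in heat stress library 1 and 57.1 in heat stress library 2. The control libraries were close (1.15-fold apart), whereas the heat stress libraries were 3.61-fold apart. Its log2 change of 1.20 (standard error 1.01, adjusted p = 0.686 by limma) was not past the threshold. It came to 2.09 without heat stress library 1, past the threshold, and to 0.30 without heat stress library 2. Scaling to equal library totals put control library 1 at 15.8, above heat stress library 1 at 13.7, so the separation of the groups was lost.

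MiR-702-5p was listed in heat stress library 1 alone, at 10.3 (13 reads), and miR-697 in heat stress library 2 alone, at 1.00 (1 read). The former had a log2 change of 1.75 (standard error 1.39, adjusted p = 0.686 by limma). This became 0 without heat stress library 1 and 3.49 without heat stress library 2. The change of 3.49 was past the threshold, in a fit where the control values have no spread. MiR-697 did not reach the mean value needed for the test, and its single read lies within what a value of 0 allows in the other libraries. Neither entry therefore had a replicate within its group.

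The conserved miR-708 hairpin gave the most abundant entry. The value of miR-708-3p was 56.9 and 162 in the control libraries and 104 and 56.1 in the heat stress libraries. Groups overlapped, with the lowest and second lowest values in different groups. The log2 change was -0.33 (standard error 1.00, adjusted p = 0.976 by limma), smaller than the spread between replicates. The value of miR-708-5p was 8.13, 3.13, 13.4 and 0 in the same order of libraries. Its mean was higher after heat stress (6.72 ± 9.50 against 5.63 ± 3.53, SD, n = 2 each), whereas its log2 change was -0.69 (standard error 1.52, adjusted p = 0.960 by limma), so the sign depended on the scale. Neither arm had a stable direction when a library was left out. Without heat stress library 2 the log2 changes were 0.12 for the 3p arm and 1.23 for the 5p arm, and without control library 2 that of the 3p arm was 0.42.

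The 3p arm dominated this hairpin in each library. It made up 42 of 48 reads in control library 1, or 87.5% (exact Clopper-Pearson 95% interval 74.8% to 95.3%). The share was 98.1% of 211 reads in control library 2 (95.2% to 99.5%), 88.6% of 149 in heat stress library 1 (82.4% to 93.2%) and 100% of 56 in heat stress library 2 (93.6% to 100%). The ranges of the control libraries overlap only narrowly, and the shares did not sort by group. Of the 67 hairpins with both arms listed, the 3p arm had the higher mean in 38. Among the 325 listed miRNAs with a sequence, miR-708-5p shares its seed only with miR-28a-5p, with values of 0 and 2.35 under control conditions and 1.58 and 7.01 after heat stress.

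Taking the miR-708 hairpin away changes how the block as a whole was divided. That hairpin held 36.4% and 63.7% of the block's summed value in the control libraries and 70.0% and 23.8% in the heat stress libraries. The remaining 8 entries summed to 114 and 93.9 in the control libraries and to 50.6 and 179 in the heat stress libraries, so the lowest and the highest sum were both found after heat stress. Heat stress library 2 held the highest value of 5 of the 10 entries (miR-690, miR-696, miR-697, miR-712-3p and miR-712-5p), against 98 of all 389 miRNAs (25.2%). Heat stress library 1 held that of miR-702-5p and miR-708-5p, control library 2 that of miR-706 and miR-708-3p, and control library 1 that of miR-709. Being at 0 in both control libraries was seen in 5 of the 10 entries and in 105 of the 389 miRNAs (27.0%), and being at 0 in both heat stress libraries in 0 of the 10 and 59 of the 389 (15.2%).

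Mature sequences were found in RefSeq (GRCm38.p6) for 6 of the 10 entries, and miR-696, miR-709, miR-712-3p and miR-712-5p were not matched. They are printed to show that the block is not a seed family. Capitals mark the seed, and the last line gives the listed miRNA that shares the seed of miR-708-5p.
mmu-miR-690: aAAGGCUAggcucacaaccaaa
mmu-miR-697: aACAUCCUgguccuguggaga
mmu-miR-702-5p: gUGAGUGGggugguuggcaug
mmu-miR-706: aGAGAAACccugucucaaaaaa
mmu-miR-708-3p: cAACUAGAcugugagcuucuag
mmu-miR-708-5p: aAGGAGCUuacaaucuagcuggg
mmu-miR-28a-5p: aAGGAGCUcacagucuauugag

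The 6 entries had 6 different seeds. Their GC content ranged from 36.4% (miR-706) to 61.9% (miR-702-5p), around a median of 50.0% over the 325 listed miRNAs with a sequence, and their lengths were 21 to 23 bases against a median of 22.

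Among the 6 entries with a matched sequence, miR-706 was set apart by how often its sequence recurs. The 4 entries without one, miR-709 among them, could not be searched, so whether their sequences recur was not tested. Its 22 bases were found without mismatch, on either strand, in transcripts of 450 genes among 139565 transcripts of the GENCODE M21 annotation that are not miRNAs. The sequence resembles the end of the B1 family of short interspersed repeats, which is found in many mouse introns and untranslated regions. MiR-690 was found in 4 genes and the other 4 matched entries in 0, and the median over the 325 listed miRNAs was 0. Only 3 other listed miRNAs (4 of 325 in all, 1.23%) occurred in at least 10 genes, which were miR-3470b (1016 genes), miR-3473b (725) and miR-3473a (281). Of these, miR-3473b had control values of 611 and 278 and heat stress values of 156 and 256 (log2 change -1.04, standard error 0.93, adjusted p = 0.686 by limma). MiR-3470b had a log2 change of -0.50 (standard error 0.85). MiR-3473a was at 4.06, 5.48, 0 and 27.0, with a log2 change of -0.11 (standard error 1.74). None of the 3 was past the threshold, and these 3 were chosen by sequence after the values of miR-706 had been seen. Reads given to miR-706 cannot be told apart from fragments of other transcripts that hold the same bases. In promoter windows of 300 bases, the same 22 bases were found in 2 of 32851.

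By GENCODE M21 positions on GRCm38 (the authors' build is not given in the sources used here), 6 of the 8 hairpins were located, each inside a protein-coding gene on the same strand. Over the 325 listed mature miRNAs with a RefSeq position, 55.4% lay in this way. This share counts mature miRNAs and not hairpins, so both arms of miR-708 enter it and miR-709 does not. Mir708 (chr7:96249424-96249532, plus strand) lies in an intron of Tenm4, which encodes a teneurin of developing neurons and oligodendrocytes. Mir709 (chr8:84086099-84086186, plus strand) lies in an intron of Rfx1, a transcription factor gene. Mir706 (chr6:120034228-120034311, minus strand) lies in an intron of the kinase gene Wnk1. Mir690 (chr16:28599935-28600043, minus strand) lies in an intron of Fgf12, and Mir697 (chr4:124731694-124731802, plus strand) in an intron of the splicing factor gene Sf3a3. The levels of these host transcripts were not measured here.

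Mir702 (chr5:136991433-136991541, plus strand) overlaps an exon of Plod3, which encodes a lysyl hydroxylase of collagen. An exon of Plod3 ends at position 136991441, and miR-702-5p starts at the next base, 136991442. The other arm ends at 136991541, and the next exon starts at 136991544. The hairpin thus spans an intron of 102 bases almost from end to end. The hairpin is printed because it shows this layout, with miR-702-5p in capitals.
Mir702 hairpin: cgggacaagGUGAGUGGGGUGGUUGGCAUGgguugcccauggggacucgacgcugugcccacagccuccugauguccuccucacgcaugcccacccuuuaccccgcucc

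The first bases of miR-702-5p are also the first bases of the intron, where splice donor sites lie. Its 13 reads came from heat stress library 1, and reads of a mature miRNA and of a fragment of the unspliced or excised intron cannot be told apart in these values.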

How the data were processed

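Small RNA of 4 exosome-enriched preparations (2 control, 2 heat stress) was sequenced. The authors removed adapters, reads under 17 nt and low-quality reads and used Bowtie for alignment to the genome. The submitters' processing notes list FastQC and BWA, and the genome build and miRNA release are not given in the sources used here. The authors deposited 1 normalized signal per miRNA and library, not raw counts, together with their own fold change and p-value, which were not used.

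limma (version 3.58.1, R version 4.3.3) was run on log2(value + 1) for every listed miRNA whose mean reached 1, with a single term for condition and p-values adjusted by Benjamini-Hochberg. Adding 1 understates changes of low values. Where values are 0, folds are ratios of the heat stress mean to 3 reads per control library (one-sided 95% limit of a 0; two-sided intervals reach further). Count models were not run, since the values are not raw counts. Intervals (95%, exact, scipy version 1.17.1) cover counting error only. Libraries were amplified by PCR.

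The members and lists were chosen with earlier results of these data known. All members are named, with the 3 miRNAs nearest to miR-712-3p, miR-712-5p, miR-709 and miR-696, and listed miRNAs sharing a member's seed. Cell type markers were written from general knowledge. A list of miRNAs within the ribosomal RNA precursor was planned and not made, as no precursor transcript was in the annotation used. Sequences came from RefSeq (GRCm38.p6) and hairpin positions from GENCODE M21.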

Additional observations from a re-analysis of the deposited data

How the results depend on the processing

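Over all miRNAs tested, 14 were higher and 9 were lower. A mean value of at least 10 gave 6 higher (159 tested), a variance prior that follows the mean 6 higher, a pseudocount of 0.1 gave 2 lower, log2(CPM + 1) 3 lower and the replicate block 4 lower. With 1 library left out, 10 to 39 were higher and 3 to 27 lower. Of the entries numbered miR-690 to miR-721, 2 were higher and 1 was lower. Only 1 was higher under the mean value filter of 10 (5 tested), under the variance prior and under the replicate block, and 0 were lower with the replicate block. With 1 library left out, 0 to 4 were higher and 0 to 2 lower. These fits leave 1 residual degree of freedom, and the lone library is assumed to vary like the other group. Without heat stress library 1, and without heat stress library 2, 35 miRNAs each had an adjusted p under 0.05 by limma, of which 35 and 34 were at 0 in both control libraries, where the spread is 0 by construction.

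Leaving out a library reversed miR-708-3p (0.42 without control library 2, 0.12 without heat stress library 2; range -1.07 to 0.42) and miR-708-5p (1.23 without heat stress library 2; range -2.62 to 1.23). No direction of the 9 entries changed in the settings with all 4 libraries, where 54 comparisons kept their side of the threshold, 4 were weaker and 1 was stronger. MiR-712-3p passed in each of these. Log2 changes of entries with a 0 grew with a pseudocount of 0.1 and with log2(CPM + 1): 7.70 and 8.19 against 4.45 for miR-712-3p, 6.34 and 6.83 against 3.23 for miR-696, 4.27 and 4.60 against 2.62 for miR-712-5p, 3.35 and 3.51 against 1.75 for miR-702-5p, and -2.15 and -2.57 against -0.69 for miR-708-5p. Same-numbered libraries deviated with a Pearson correlation of -0.0189 over 313 miRNAs. The labels give them a common number and no other link. This correlation cannot show whether they shared a preparation. The planned DESeq2, TMM and edgeR fits were not run, as the values are not counts. Of the 10 entries, 5 were at 0 in both control libraries, and a 0 allows up to 3 reads at a one-sided 95% limit.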
